A study of Mus musculus with 12 samples.

Results

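PI3 kinases (phosphoinositide 3-kinases) and their regulators were examined in RNA sequencing of mouse colon, as 9 genes picked by symbol from the 30263 genes of the colon tables. The genes were Pik3ap1, Pik3cg, Pik3cd, Pik3r5, Inpp5d, Pik3ca, Pik3cb, Pik3r1 and Akt1. All 9 passed the filter on low counts and were tested. The study asks what loss of S1PR4, a receptor for sphingosine 1-phosphate on immune cells, does to tumors. Total colons came from C57BL/6 mice labelled S1PR4 KO (3 libraries) and labelled WT (3 libraries), taken at day 84 of treatment with the carcinogen azoxymethane (AOM, 10 mg/kg) and dextran sulfate sodium (DSS, 0.5%), an agent that damages colon epithelium. Both groups had the treatment, so neither shows an untreated colon. The labels give no sex, age, or cell type for the deletion, and do not say that each library is a separate animal, so p-values measure only the spread between these samples. KO and WT below name libraries by their labels. Of the 12 libraries in the series, the 6 of sorted CD8+ T cells listed none of the 9 genes.

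PI3 kinases add a phosphate to a membrane lipid and so make PIP3, which draws proteins such as the kinase AKT to the membrane. A class I enzyme is a catalytic subunit joined to a regulatory one. The alpha and beta catalytic subunits, from Pik3ca and Pik3cb, are made in most cell types, while delta (Pik3cd) and gamma (Pik3cg) are found mainly in leukocytes. The alpha, beta and delta subunits pair with p85-type regulators such as the product of Pik3r1, and gamma pairs with p101, from Pik3r5, downstream of G protein-coupled receptors. Pik3ap1 encodes BCAP, an adaptor that brings PI3 kinase to receptors of B cells and myeloid cells, and Inpp5d encodes SHIP1, a leukocyte phosphatase that removes a phosphate from PIP3. The leukocyte members here are Pik3ap1, Pik3cg, Pik3cd, Pik3r5 and Inpp5d, and the ubiquitous ones are Pik3ca, Pik3cb, Pik3r1 and Akt1.

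The 250 bases upstream of the transcription start are shown for 4 leukocyte members and 1 ubiquitous member, because the split into leukocyte and ubiquitous members organises the results below. Each is a RefSeq start on GRCm38.p6 that lies within 10 bases of the GENCODE gene start. Capitals mark matches on either strand to GAGGAA, the core of sites for the myeloid and B cell factor PU.1, and to GGGCGG, the GC box. The windows are chr19:41385103-41385352 on the minus strand, chr12:32208660-32208909 on the minus strand, chr11:68431875-68432124 on the plus strand, chr1:87620062-87620311 on the plus strand and chr13:101768218-101768467 on the minus strand.
Pik3ap1: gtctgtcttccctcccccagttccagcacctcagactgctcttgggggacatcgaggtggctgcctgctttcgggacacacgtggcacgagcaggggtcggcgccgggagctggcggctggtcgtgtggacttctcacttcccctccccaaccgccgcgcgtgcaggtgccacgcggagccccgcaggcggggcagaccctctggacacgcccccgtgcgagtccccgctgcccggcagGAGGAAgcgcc
Pik3cg: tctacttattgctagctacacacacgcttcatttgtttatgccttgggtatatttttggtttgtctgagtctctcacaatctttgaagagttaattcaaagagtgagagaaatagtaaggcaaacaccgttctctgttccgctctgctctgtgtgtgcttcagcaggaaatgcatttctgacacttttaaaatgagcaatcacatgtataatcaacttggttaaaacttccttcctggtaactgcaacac
Pik3r5: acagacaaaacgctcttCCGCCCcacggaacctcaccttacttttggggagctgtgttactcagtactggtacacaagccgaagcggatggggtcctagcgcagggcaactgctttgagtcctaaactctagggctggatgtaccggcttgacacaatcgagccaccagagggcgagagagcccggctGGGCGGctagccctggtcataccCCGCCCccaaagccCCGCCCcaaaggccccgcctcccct
Inpp5d: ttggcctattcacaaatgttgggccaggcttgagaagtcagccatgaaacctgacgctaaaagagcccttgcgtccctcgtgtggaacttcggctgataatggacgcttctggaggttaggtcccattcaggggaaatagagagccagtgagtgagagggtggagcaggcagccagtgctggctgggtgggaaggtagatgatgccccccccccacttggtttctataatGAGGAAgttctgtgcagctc
Pik3r1: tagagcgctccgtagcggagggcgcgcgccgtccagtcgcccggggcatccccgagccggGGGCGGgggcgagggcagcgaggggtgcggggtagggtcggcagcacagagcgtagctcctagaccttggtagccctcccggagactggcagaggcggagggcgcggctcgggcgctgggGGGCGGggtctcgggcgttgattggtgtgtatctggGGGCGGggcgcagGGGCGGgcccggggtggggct

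All 9 genes matched at least 1 RefSeq start by symbol. GAGGAA stood in a window of Pik3ap1, of Inpp5d and, with 2 matches, at the other annotated start of Pik3cg, and in no window of the 4 ubiquitous genes. Pik3cd and Pik3r5 had no match to it. It occurs in 23.3% of the 32851 windows of all genes. The members have 1 to 3 windows each, so these counts by gene cannot be set against shares of windows. Whether leukocyte and ubiquitous genes differ in such matches was not tested. The GC box stood in a window of each ubiquitous gene and also in windows of Pik3cd and Pik3r5, and it occurs in 32.7% of all windows. It was absent from the Akt1 window at the gene start and from the other Pik3r1 window. The CpG-rich windows did not follow the split, with a median of 6 CG dinucleotides over all windows. Pik3ap1 held 23, Pik3r5 14, Inpp5d 5, Pik3cg 3 in the shown window and 5 in the other, and Pik3cd 6, 19 and 4. Pik3r1 held 30 in the shown window and 6 in the other. Akt1 held 7 at its gene start and 31 at its other start, Pik3ca 19 and Pik3cb 32. Such matches describe letters in a window, not sites in use. No exon of the 9 genes overlaps an exon of another annotated gene, so reads of neighbours or antisense genes do not enter their counts by position.

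Total counts ran from 7304082 to 7919107 in the libraries labelled KO and from 7492925 to 8652561 in those labelled WT. S1pr4 itself was higher in the libraries labelled KO, at 19.7, 21.4 and 16.1 counts per 1000000 reads (CPM), against 7.22, 6.29 and 3.13 CPM in those labelled WT. Since a count does not tell where in the gene its reads fell, S1pr4 leaves the labels unchecked, and each direction below rests on them. Libraries also differed in Xist, a gene of female cells, which stood at 591 and 515 CPM in KO replicates 2 and 3 and at 545 CPM in WT replicate 1. It did not exceed 6.75 CPM in KO replicate 1 and WT replicates 2 and 3, where Ddx3y, on the Y chromosome, had 63.3 to 81.1 CPM. Within either set a difference rests on 1 library of one group, and these within-set values are given below. Epithelial markers of the colon were present in every library, with summed levels of 1994 to 2120 CPM in KO and 1902 to 2170 CPM in WT.

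Among the 9 genes, those of the gamma arm and the adaptor Pik3ap1 had the highest KO to WT ratios, while the delta subunit, SHIP1 and the ubiquitous genes had similar group means. Mean levels in KO were 1.97 times those in WT for Pik3ap1, 1.70 times for Pik3cg and 1.33 times for Pik3r5. The ratios of the other 6 genes lay between 0.892 for Pik3r1 and 1.10 for Pik3cd. None of the 9 passed edgeR's quasi-likelihood test with Benjamini-Hochberg adjustment over 17195 genes, where 0.0% of genes were called. Limma-voom also called 0.0% of genes, and DESeq2 called 14 (0.0637%), none of them a member. S1pr4 was among these 14, higher in KO (adjusted p = 0.0044 in DESeq2, 0.829 in edgeR and 0.131 in limma-voom). An unadjusted p under 0.05 was reached in edgeR by 1 member, Pik3cg, and by 5.06% of all genes. In DESeq2 it was reached by 2 members, Pik3cg and Pik3ap1, and by 3.39% of genes, and in limma-voom by 4 members, which added Pik3r5 and Pik3r1, and by 24.1% of genes. The groups did not overlap for 1 member, Pik3cg, which was higher in KO, as were 4.55% of all genes, and for no member lower in KO, as were 5.04% of all genes.

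**Figure D1:**
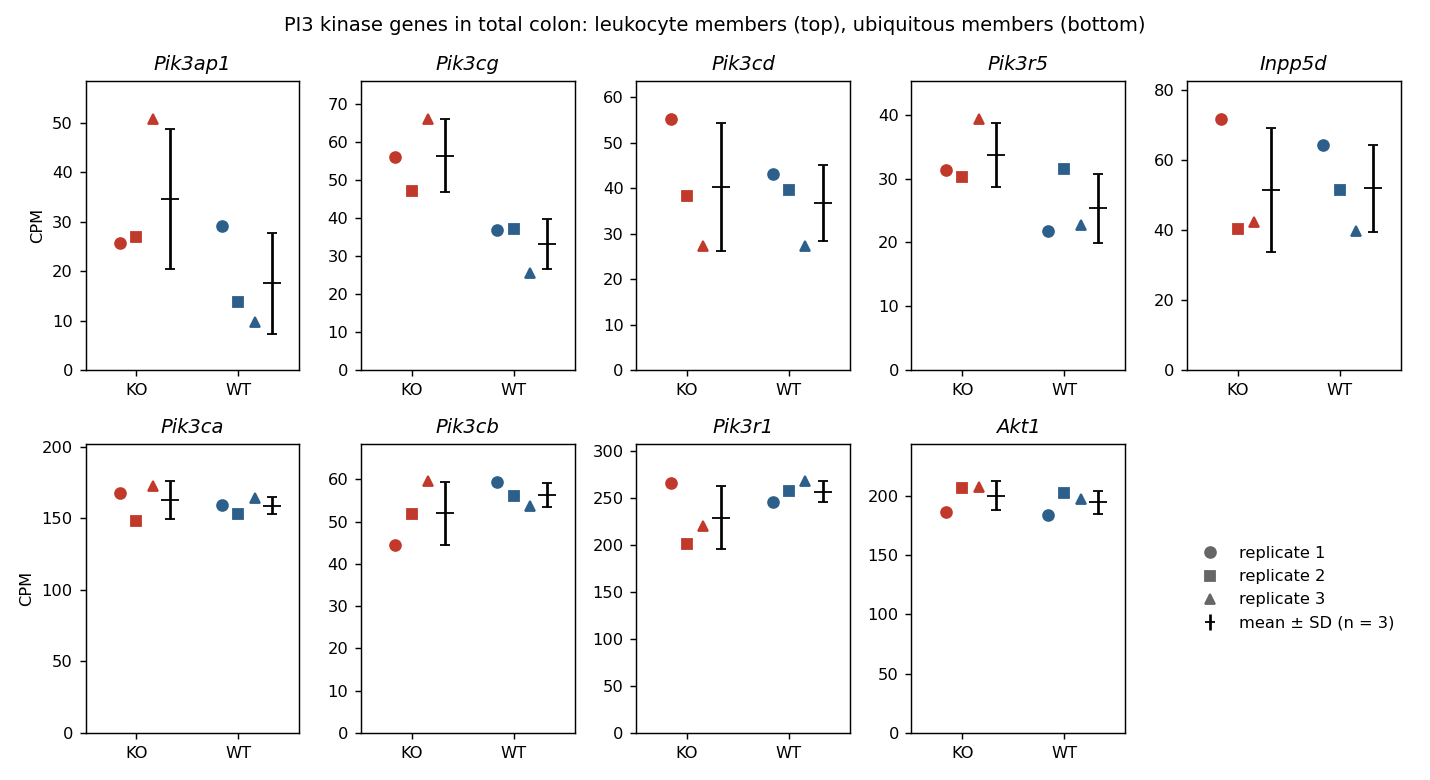
Level of each gene (CPM, TMM-scaled, vertical axes from 0) in the 3 KO and 3 WT colon libraries, with marker shape for the replicate and a black bar for mean ± SD (n = 3). The KO and WT points of Pik3cg do not overlap, with 47.0 CPM the lowest KO and 37.0 CPM the highest WT value, while those of the other 8 genes do.

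Pik3cg, the catalytic subunit gamma (ENSMUSG00000020573, GRCm38 chromosome 12, 32173473 to 32208659), had 56.0, 47.0 and 66.0 CPM in the KO libraries, against 36.8, 37.0 and 25.5 CPM in the WT libraries. Every KO library stood above every WT library. The means were 56.3 ± 9.55 CPM in KO and 33.1 ± 6.59 CPM in WT (SD, n = 3 each), a fitted log2 difference of 0.77 ± 0.20 (SE). Neither edgeR (adjusted p = 0.829, unadjusted p = 0.0076) nor DESeq2 (adjusted p = 0.337) called it, and its adjusted p ran from 0.131 to 0.99994 over the alternatives. Among the Xist-high libraries KO exceeded WT by 0.59, and among the Xist-low ones by 0.85, on a log2(CPM + 1) scale, so both sets had the same sign. Leaving out any single library gave log2 differences between 0.62 and 0.88.

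Pik3r5, which encodes the p101 partner of gamma (ENSMUSG00000020901, chromosome 11, 68432121 to 68497849), stood at 31.3, 30.3 and 39.4 CPM in KO, against 21.8, 31.6 and 22.8 CPM in WT. WT replicate 2 lay among the KO values, so the groups overlapped. The log2 difference was 0.41 ± 0.19 (SE), short of edgeR's threshold (adjusted p = 0.829), and it was 0.64 among Xist-high and 0.21 among Xist-low libraries. Pik3r6, which encodes the alternative gamma regulator p84, was much less abundant and stood at 8.17, 4.76 and 3.54 CPM in KO, against 5.09, 2.67 and 5.13 CPM in WT. It was chosen for mention after its values were seen.

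Pik3ap1, the adaptor BCAP (ENSMUSG00000025017, chromosome 19, 41272377 to 41385102), varied most between libraries. It stood at 25.8, 27.0 and 50.8 CPM in KO, against 29.1, 13.8 and 9.75 CPM in WT. KO replicate 3 was the highest library, and WT replicate 1 stood above 2 of the KO libraries, so the groups overlapped. The means of 34.5 ± 14.1 CPM in KO and 17.5 ± 10.2 CPM in WT (SD, n = 3 each) gave a log2 difference of 0.97 ± 0.48 (SE), not called by edgeR (adjusted p = 0.829). Leaving out KO replicate 3 brought this to 0.59, and leaving out WT replicate 1 brought it to 1.57. The KO excess was 0.34 among Xist-high libraries and 1.09 among Xist-low ones.

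Pik3cd, the catalytic subunit delta that acts behind antigen receptors (ENSMUSG00000039936, chromosome 4, 149649168 to 149702571), had 55.3, 38.2 and 27.2 CPM in KO, against 43.2, 39.6 and 27.3 CPM in WT. The KO values spanned the whole range, and the WT values lay inside it. The log2 difference of 0.13 ± 0.30 (SE) was smaller than its error (edgeR adjusted p = 0.935), and leaving out KO replicate 1 (-0.17) or WT replicate 3 (-0.03) turned its sign. Inpp5d, the phosphatase SHIP1 (ENSMUSG00000026288, chromosome 1, 87620312 to 87720507), had 71.7, 40.2 and 42.3 CPM in KO, against 64.3, 51.5 and 39.8 CPM in WT. Its means of 51.4 ± 17.6 CPM in KO and 51.9 ± 12.3 CPM in WT (SD, n = 3 each) lay closer than the spread of either group, at a log2 difference of -0.01 ± 0.28 (SE, edgeR adjusted p = 0.996) whose sign turned with total counts as the only scaling. It also turned positive without KO replicate 2 (0.14), KO replicate 3 (0.12) or WT replicate 1 (0.18).

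Both of these genes went one way within the Xist-high libraries and the other way within the Xist-low ones, with KO and WT not overlapping in either set. The same held for 3 of the 9 members, Akt1 being the third, and for 40.9% of all tested genes, so the members' count is no higher than the background. For Pik3cd the KO minus WT difference (log2) was -0.41 in the Xist-high set and 0.73 in the Xist-low set. For Inpp5d it was -0.63 in the Xist-high set and 0.65 in the Xist-low set. An interaction term in edgeR, added after the values were seen, put the difference between the sets at -1.13 ± 0.44 for Pik3cd (SE, adjusted p = 0.262) and -1.29 ± 0.26 for Inpp5d (SE, adjusted p = 0.168). It was called for none of 17195 genes, with 3341 at an unadjusted p under 0.05 and 2 residual degrees of freedom.

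**Figure D2:**
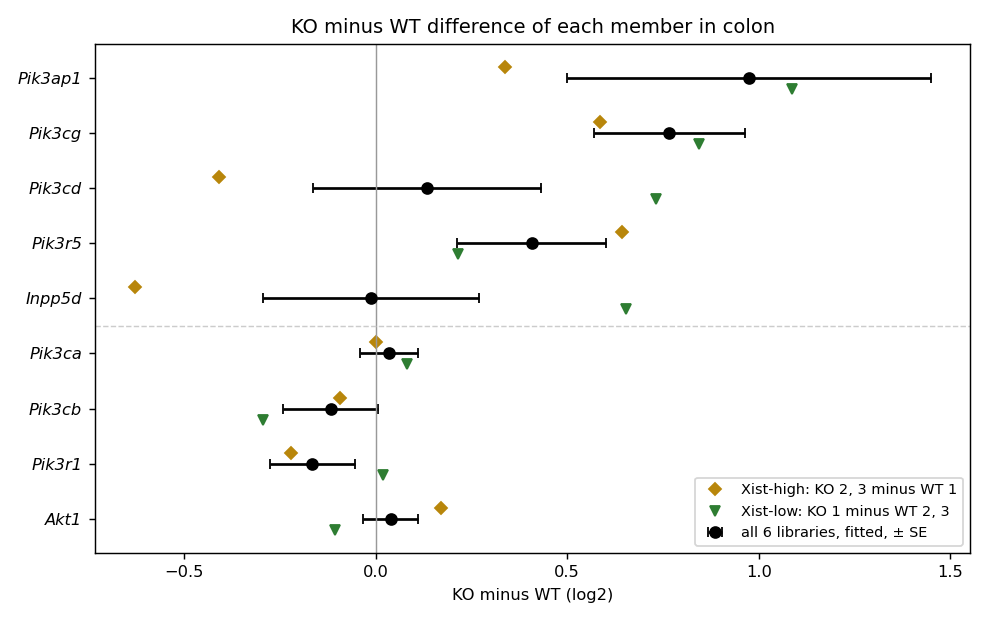
KO minus WT difference of each gene (log2, horizontal axis), as the edgeR fit over 6 libraries with its SE (circles) and within the Xist-high libraries (diamonds) and the Xist-low ones (triangles), which have 3 libraries each. Pik3cg stands right of 0 in each, at 0.77, 0.59 and 0.85, while Pik3cd and Inpp5d stand on opposite sides of 0 in the 2 sets. The fitted Inpp5d value of -0.01 changes sign with total counts as the only scaling.

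The ubiquitous genes varied little. Pik3ca, the catalytic subunit alpha (ENSMUSG00000027665, chromosome 3, 32397671 to 32468486), stood at 168, 148 and 173 CPM in KO, against 159.6, 153 and 164 CPM in WT, a log2 difference of 0.03 ± 0.08 (SE, edgeR adjusted p = 0.935). Pik3cb, the catalytic subunit beta (ENSMUSG00000032462, chromosome 9, 99036654 to 99140621), stood at 44.6, 51.8 and 59.5 CPM in KO, against 59.3, 56.2 and 53.6 CPM in WT, a log2 difference of -0.12 ± 0.12 (SE, edgeR adjusted p = 0.872). The groups overlapped for both genes. Pik3r1 encodes the regulatory subunit p85 alpha (ENSMUSG00000041417, chromosome 13, 101680563 to 101768217). Its levels were 266, 201 and 220.0 CPM in KO, against 245, 257 and 268 CPM in WT, with KO replicates 2 and 3 the lowest libraries and KO replicate 1 among the WT values. The log2 difference was -0.16 ± 0.11 (SE, edgeR adjusted p = 0.829). Akt1, the kinase that PIP3 draws to the membrane (ENSMUSG00000001729, chromosome 12, 112653821 to 112674884), stood at 186, 206 and 208 CPM in KO, against 184, 203 and 198 CPM in WT. Its log2 difference of 0.04 ± 0.07 (SE) was within the error (edgeR adjusted p = 0.923).

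Akt1 alone of the 9 averaged more than 0.3 counts per exon base, at 0.374. With the shortest genes left out, the highest count per exon base lay between 0.919 and 0.973 in each of the 6 libraries. Folds of genes with dense reads may thus be compressed, and the level of Akt1 may be understated. With that limit, per kilobase of exon Akt1 was the most abundant of the 9, with a median of 48.8 CPM per kb over the 6 libraries and a range of 44.8 to 50.7. Pik3r1 followed with 24.9 (19.9 to 26.5) and Pik3ca with 17.8 (16.3 to 19.0) CPM per kb. Akt1, Pik3r1 and Pik3ca kept this order in all 6 libraries, and their ranges did not overlap each other or the next gene's. Pik3cb had 7.63 CPM per kb (6.19 to 8.27), Pik3cd 6.22 (4.35 to 8.83), Inpp5d 6.17 (5.23 to 9.44), Pik3r5 5.55 (3.92 to 7.09), Pik3cg 4.98 (3.03 to 7.84) and Pik3ap1 4.74 (1.75 to 9.12). Each of these last 6 overlapped its neighbours in the order, so no step between neighbours among them held beyond the spread. Pik3cb stood above Pik3r5 in all 6 libraries, although their ranges overlapped.

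The balance of leukocyte over ubiquitous genes was read within each library, which removes the scaling between libraries. The mean log2(CPM + 1) of the 5 leukocyte genes lay below that of the 4 ubiquitous ones in every library, by -1.61, -1.87 and -1.74 in KO, against -1.95, -2.15 and -2.63 in WT. The gap was smaller in every KO library than in any WT library, with means of -1.74 ± 0.13 in KO and -2.24 ± 0.35 in WT (SD, n = 3 each), 0.50 apart. The genes were chosen with earlier results known, so this score has no test. The difference came to 0.14 in the Xist-high set, to 0.78 in the Xist-low set and to 0.31 without WT replicate 3. On the side of the ubiquitous genes the mean levels were close, at 7.14 ± 0.07 in KO and 7.20 ± 0.02 in WT (SD, n = 3 each, log2). Among the leukocyte genes the score rose mainly through Pik3ap1, Pik3cg and Pik3r5, with fitted log2 differences of 0.97, 0.77 and 0.41. Those of Pik3cd (0.13) and Inpp5d (-0.01) added little.

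Among the reads of the 4 class I catalytic genes, delta and gamma together made up 34.4%, 29.9% and 28.7% in the KO libraries, against 26.8%, 26.8% and 19.5% in the WT libraries. Their 95% Wilson intervals were 32.6 to 36.3, 28.0 to 31.9 and 26.9 to 30.5% in KO, and 25.1 to 28.5, 25.002 to 28.8 and 17.9 to 21.2% in WT, so the lowest KO and the highest WT library could not be told apart by counting error. Gamma alone made up 17.3%, 16.5% and 20.3% in KO, against 12.3%, 13.0% and 9.42% in WT, while delta made up 17.1%, 13.4% and 8.37% in KO, against 14.4%, 13.9% and 10.1% in WT. Every KO library held a larger share of gamma than any WT library, and the delta shares overlapped. In the Xist-high set the gamma share was 6.08 percentage points higher in KO, and in the Xist-low set 6.13. The summed delta and gamma share was 2.52 points higher in the Xist-high set and 11.2 in the Xist-low set. Shares sum to 100%, so alpha and beta took less in every KO library than in any WT library, at 51.8 to 53.0% in KO and 53.4 to 60.7% in WT for Pik3ca. The ratio of Pik3cg to Pik3cd counts was 1.01, 1.23 and 2.425 in KO, against 0.852, 0.936 and 0.936 in WT. These counts, like the shares, were not scaled to exon length, although shares per kilobase were planned. Exons span 8426 bases for Pik3cg and 6259 for Pik3cd, so a ratio above 1 need not mean more gamma transcripts. Per kilobase of exon, gamma lay below delta in every WT library and in KO replicate 1 (6.65 against 8.83 CPM per kb). It was also below in KO replicate 2 (5.57 against 6.11), and above in KO replicate 3 (7.84 against 4.35). Gamma was 50.3% of the summed gamma and delta reads in KO replicate 1 (95% Wilson interval 47.0 to 53.7%), against 48.3% in WT replicate 2 (44.3 to 52.4%), so these libraries could not be told apart by counting error. KO minus WT in the ratio was 0.97 in the Xist-high set and 0.078 in the Xist-low set. The 3 WT ratios were close together, and KO replicate 3, with the highest Pik3cg and a Pik3cd level as low as the lowest WT library, stood apart from all others.

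**Figure D3:**
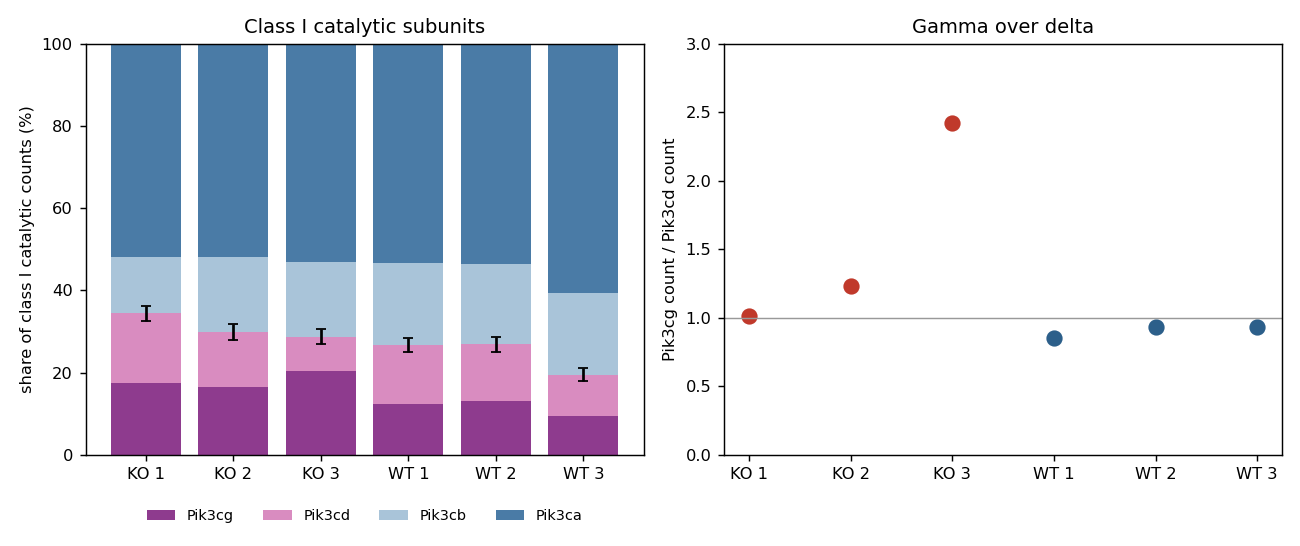
Left, share of each class I catalytic gene in the summed counts of all 4 (%, bars from 0 to 100), with 95% Wilson intervals on the summed share of Pik3cg and Pik3cd, and right, the ratio of Pik3cg to Pik3cd counts, in each colon library. Gamma takes 16.5 to 20.3% in KO and 9.42 to 13.0% in WT, and the ratio is 1.01 to 2.425 in KO and 0.852 to 0.936 in WT. Neither is scaled to exon length, so the horizontal line on the right does not mark equal transcript levels.

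The 9 genes fell into different profiles over the 6 libraries. Likeness was measured as the root mean square difference between centred log2(CPM + 1) profiles, in log2 units, where 0 would be identical. Among the leukocyte genes, Pik3cd and Inpp5d were the closest pair, at 0.182, followed by Pik3cg and Pik3r5, at 0.259, and by Pik3ap1 and Pik3cg, at 0.414. Pik3cg stood 0.498 from Pik3cd, and Pik3ap1 stood 0.789 from it. The ubiquitous pairs, whose levels hardly varied, lay between 0.113 and 0.232. Among the lists of cell type markers, Pik3cd lay closest to the mean profile of T cell markers (0.120) and of general leukocyte markers (0.130), and Inpp5d to general leukocyte (0.127) and T cell markers (0.149). Pik3cg was no closer than 0.421 to any marker list, and Pik3ap1 no closer than 0.680, its distance to neutrophil markers. These distances are descriptions over 6 libraries that share their scaling.

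In total colon, fewer cells of a type and less RNA per cell cannot be told apart. Of the leukocyte genes, Pik3cd and Inpp5d had profiles close to general leukocyte markers, while Pik3r5 lay 0.402 from that list and 0.254 from epithelial markers. The epithelial list hardly varied (-0.10 to 0.09 from its mean), so a small distance to it mainly reflects how little a gene varies. Its markers had 0.38 to 0.80 counts per exon base, above the 0.3 limit, so their folds may be compressed. General leukocyte markers were higher in KO for 7 of 10 genes, with a median log2 difference of 0.08 and summed levels of 442 to 667 CPM in KO and 360 to 609 CPM in WT. T cell markers were higher for 7 of 9 tested (median 0.31), with sums of 56.6 to 140.1 CPM in KO and 60.0 to 101 CPM in WT. B cell markers were higher for 0 of 9 (median -0.22), with 65.8 to 331 CPM in KO and 62.5 to 320.1 CPM in WT, and macrophage and dendritic cell markers for 9 of 10 (median 0.09), with 508 to 765 CPM in KO and 527 to 648 CPM in WT. Neutrophil markers were higher for 8 of 8 tested (median 1.53), with 26.0 to 159.8 CPM in KO and 12.9 to 81.4 CPM in WT. Plasma cell markers were higher for 6 of 6 (median 0.17), with 515 to 554 CPM in KO and 453 to 516 CPM in WT. Smooth muscle markers were higher for 0 of 8 (median -0.18), with 1112 to 2035 CPM in KO and 1754 to 2270.4 CPM in WT, and fibroblast markers for 0 of 6 (median -0.13), with 989.5 to 1516 CPM in KO and 1084 to 1561 CPM in WT. None of these markers was at 0 in every library, and the neutrophil marker Stfa2l1 was at 0 in KO replicate 1 and WT replicate 2. None passed edgeR's test, and their part in the differences of the PI3 kinase and pathway genes was not tested. Per Ptprc read (CD45, carried by leukocytes in general), KO minus WT was 0.84 for Pik3ap1, 0.55 for Pik3cg, 0.20 for Pik3r5, -0.12 for Pik3cd and -0.26 for Inpp5d (log2), with overlapping groups for each. Per Ptprc read the difference changed sign between the sets for 3 of the 5 genes. It was 1.21 in the Xist-high set and -0.19 in the Xist-low set for Pik3cg, 1.28 and -0.84 for Pik3r5, and 0.20 and -0.31 for Pik3cd.

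**Figure D4:**
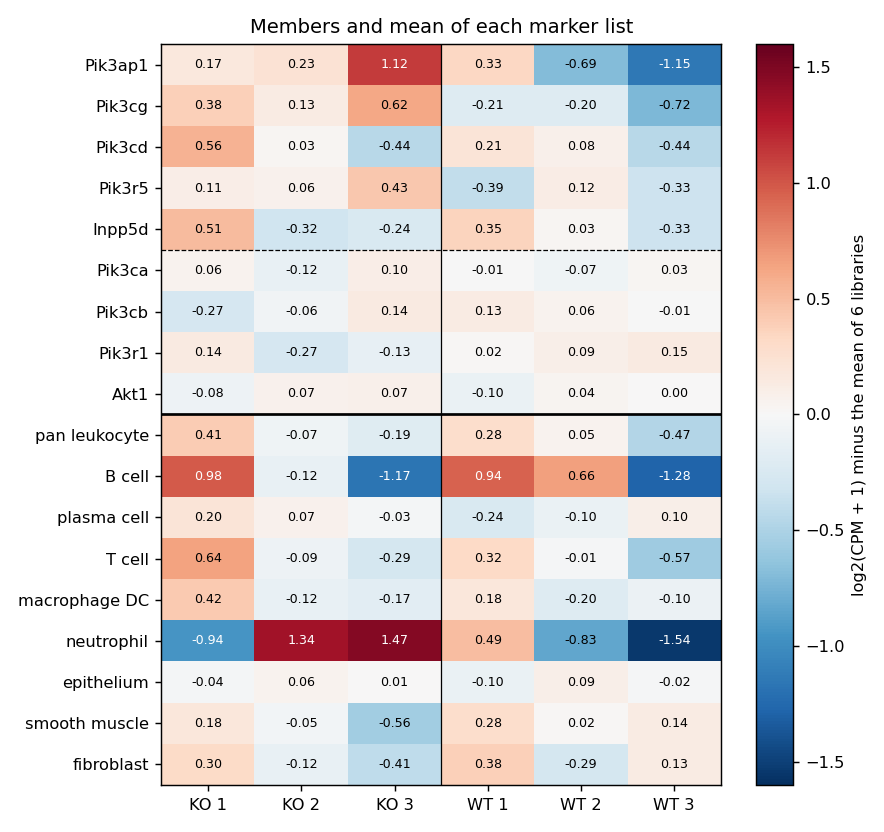
Difference of each library from the mean of the 6 colon libraries in log2(CPM + 1), for the 9 genes (top, leukocyte above ubiquitous) and for the mean of the tested genes of each marker list (bottom). Pik3cd and Inpp5d are highest in KO replicate 1. So are the general leukocyte, T cell, B cell and plasma cell lists, and the list of macrophages and dendritic cells. Pik3ap1, Pik3cg and Pik3r5 are highest in KO replicate 3, as are the neutrophil list and the ubiquitous Pik3ca, Pik3cb and Akt1. By root mean square difference the neutrophil list lies 0.956 from Pik3cg and 1.08 from Pik3r5, against 0.421 and 0.254 for their nearest lists. It also lies 1.14 from Akt1, which hardly varied. The neutrophil list ranges from -1.54 to 1.47, so large distances to it mainly reflect its own spread. WT replicate 3 is among the 2 lowest libraries for each of the 5 leukocyte genes.

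Over 12566 genes with a mean of at least 50 counts, the 5 whose profile lay closest to Pik3ap1 were Tspan32, a tetraspanin of blood cells (root mean square difference 0.174), Nxpe3 (0.188), Prkcq, the kinase PKC theta of T cells (0.205), Gpr55, a lysophospholipid receptor (0.223), and Clec7a, the fungal sensor Dectin-1 of myeloid cells (0.257). Tspan32 stood at 11.6, 11.6 and 25.9 CPM in KO, against 10.4, 7.22 and 3.88 CPM in WT. Clec7a stood at 22.5, 19.97 and 25.5 CPM in KO, against 20.6, 11.4 and 6.00 CPM in WT. The Tspan32 groups did not overlap, while those of Clec7a did. Both genes shared with Pik3ap1 a highest value in KO replicate 3 and a lowest one in WT replicate 3. The 5 genes were picked for likeness to Pik3ap1 over these libraries, so this and their higher KO levels follow from the choice. The log2 differences of the 5 genes ran from 0.56 for Gpr55 to 1.19 for Tspan32, and none passed edgeR's test (lowest adjusted p = 0.829). With 1 library left out, Gpr55 ranged from 0.19 without KO replicate 3 to 1.16 without WT replicate 1. Tspan32 ranged from 0.70 to 1.57 with the same libraries left out.

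Beyond the 9, a list of 65 genes of the pathway was examined, of which 64 were tested and 1, the adaptor Gab3, had too few counts. None rose or fell past edgeR's threshold. A higher fitted level in KO was found for 25 and a lower one for 39, with a median log2 difference of -0.07, against 49.0% higher and a median of -0.0045 over all tested genes. An unadjusted p under 0.05 in edgeR was reached by 2 of the 64, against 5.06% of all tested genes. Groups did not overlap for 5, all lower in KO, which were Inpp5e, Phlpp2, Pdpk1, Tsc1 and Plekha1, against 9.58% of all tested genes in either direction. Pdpk1 and Tsc1 are named here for that after their values were seen.

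Of 4 further class I genes, 1 was higher, which was Pik3r6 at 0.35 ± 0.42 (log2, SE). Pik3r2, a p85-type subunit, stood at -0.12 ± 0.07 and Pik3r3, another, at -0.11 ± 0.12 (log2, SE). Of 6 class II and class III genes, 4 were higher, with the class II kinases Pik3c2b at -0.28 ± 0.17 and Pik3c2g at 0.76 ± 0.60 (log2, SE). The last rests on 8, 20 and 31 reads in KO, against 17, 14 and 6 reads in WT. Leaving out KO replicate 3 put Pik3c2g at 0.25, and leaving out KO replicate 1 put it at 1.14. For Pik3c2b, leaving out KO replicate 2 gave -0.15 and leaving out KO replicate 1 gave -0.50.

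Lipid phosphatases, which remove phosphates from the products of PI3 kinases, were lower for 8 of 9 genes (median -0.13). The 5-phosphatase Inpp5e stood at 56.9, 50.3 and 46.6 CPM in KO, against 57.3, 59.9 and 68.3 CPM in WT, a log2 difference of -0.27 ± 0.11 (SE, edgeR adjusted p = 0.829). Inpp5j, another 5-phosphatase, differed by -0.34 ± 0.14 (SE).

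Adaptors and kinases upstream were lower for 8 of 12 (median -0.13), with the kinase Lyn at 0.13 ± 0.10 and the adaptor Gab1 at -0.15 ± 0.13 (log2, SE). Without WT replicate 3 Lyn was at 0.07, and without KO replicate 2 Gab1 was at -0.02. Downstream of PIP3, 15 of 21 AKT and mTOR pathway genes were lower (median -0.11). Phlpp2, a phosphatase that acts on AKT, stood at 223, 127 and 114 CPM in KO, against 259, 242 and 289.7 CPM in WT. All KO libraries lay below all WT ones, and the log2 difference of -0.77 ± 0.26 (SE, edgeR adjusted p = 0.829, unadjusted p = 0.0250) was -1.10 in the Xist-high set and -0.24 in the Xist-low set. Sgk1, a kinase related to AKT that regulates sodium uptake in colon epithelium, stood at 90.004, 119.6 and 78.3 CPM in KO, against 119, 142 and 155 CPM in WT. KO replicate 2 reached the lowest WT library, and the log2 difference was -0.53 ± 0.18 (SE, edgeR adjusted p = 0.829, unadjusted p = 0.0249). Of 12 effectors of PIP3 in leukocytes, 9 were higher (median 0.09), with the exchange factor Prex1 at 0.34 ± 0.15 and Plekha1, which binds a product of PIP3 breakdown, at -0.12 ± 0.06 (log2, SE).

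**Figure D5:**
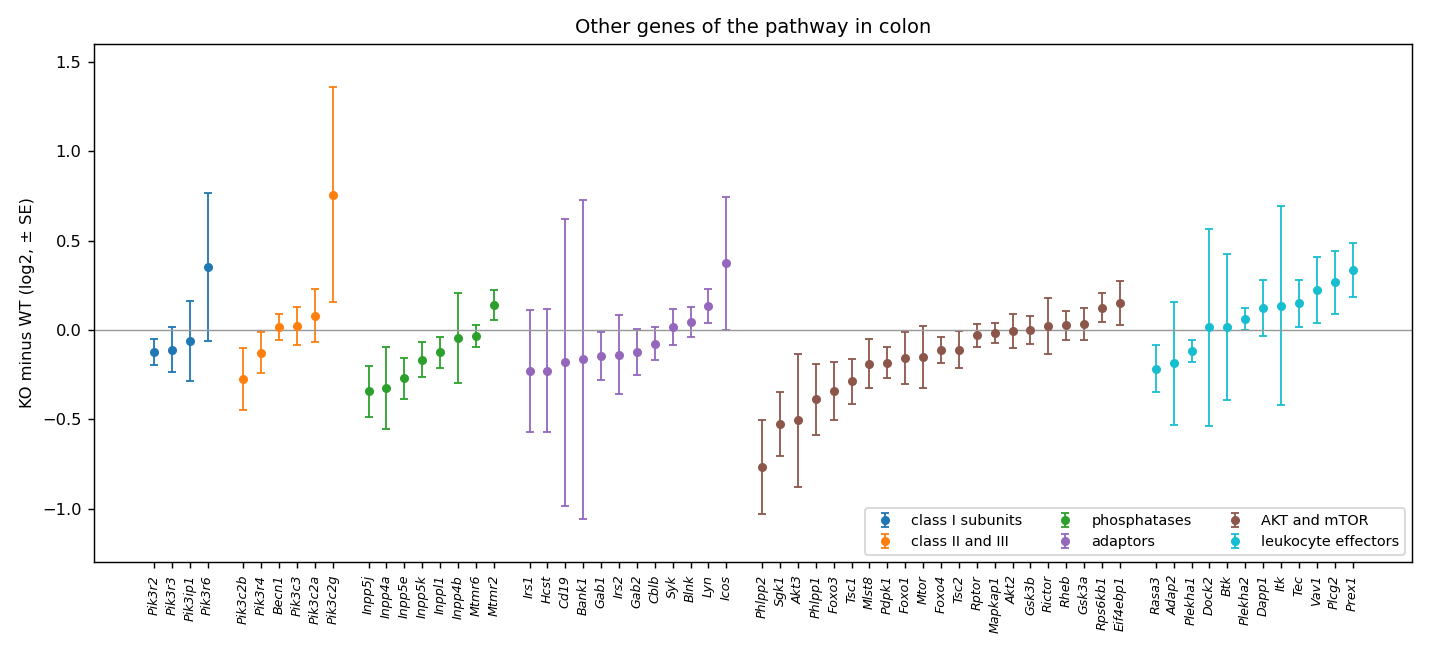
KO minus WT difference (log2, vertical axis, ± SE from the edgeR fit) of 63 of the 64 tested genes of the pathway beyond the 9, grouped by role and sorted within each group. Values lie between -0.77 for Phlpp2 and 0.76 for Pik3c2g, and no gene shown passes the adjusted threshold.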

How the data were processed

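RNA sequencing read counts per Ensembl gene were deposited as whole numbers with no normalization, per the file headers. The submitters' processing notes name STAR, TopHat2, RSEM, HTSeq and DESeq2 with builds mm10 and GRCm38. Their versions, strand setting and treatment of duplicate reads are not given in the sources used here. The tables of sorted CD8+ cells hold 357 genes each and none of the 9 members, so no test was run on them.

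Genes and exon lengths were taken from GENCODE vM21 (GRCm38), with 30212 of the 30263 colon IDs found, and promoter windows from RefSeq (GRCm38.p6). After filterByExpr and TMM scaling, colon counts went through the robust quasi-likelihood F test of edgeR 4.0.16 (R 4.3.3), with Benjamini-Hochberg adjustment over 17195 genes and a threshold of 0.05. SE is the log2 difference divided by the square root of F. CPM are counts per 1000000 of the TMM-scaled library, and log2 levels use CPM + 1. Chi-square per degree of freedom between replicates of a group was 5.58 or more, over genes with at least 20 summed reads. No library thus repeated the counts of another in its group, and pairs across groups were not compared. The chi-square does not show that libraries came from separate animals. Wilson intervals cover counting error only, since reads carry no molecular identifiers.

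Members and gene lists were chosen with earlier results of these data known. Genes named beyond the 9 members are S1pr4, Xist and Ddx3y, the 2 with the smallest p of each pathway list, the 5 closest to Pik3ap1, the 5 pathway genes with groups that do not overlap, Ptprc, Stfa2l1 (for its zeros) and Gab3 (for its low counts), both picked after their values were seen, and those marked as picked afterwards. Alternatives were DESeq2 size factors, total counts only, no filter, mean counts of 50 or more, a replicate block, DESeq2 1.42.0, limma-voom 3.58.1 with quality weights, Xist status as a covariate and each library left out. 1 gene of the pathway lists is counted but not reported here by name.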

Additional observations from a re-analysis of the deposited data

Results flagged for a closer look

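Within the 3 Xist-high libraries (KO replicates 2 and 3, WT replicate 1) and the 3 Xist-low ones (KO replicate 1, WT replicates 2 and 3), 3 of the 9 genes went opposite ways, with every KO library on one side of every WT library in each set. KO minus WT (log2) was -0.409 for Pik3cd, -0.629 for Inpp5d and 0.171 for Akt1 within the Xist-high libraries. Within the Xist-low libraries it was 0.733 for Pik3cd, 0.653 for Inpp5d and -0.105 for Akt1. Such opposite separation was found for 40.9% of all tested genes, so 3 of 9 is no higher than the background. An interaction term in edgeR, with 2 residual degrees of freedom, was not past the threshold for any of the 3 (adjusted p = 0.262 for Pik3cd, 0.168 for Inpp5d and 0.265 for Akt1). The sets were read from the data and are not groups of the study, and each has a single library on one side. Pik3cd and Inpp5d lay close to the general leukocyte list (root mean square difference 0.130 and 0.127) and the T cell list (0.120 and 0.149), and Akt1 lay close to the epithelial list (0.040). Both Akt1 and the epithelial list hardly varied, so this closeness does not place Akt1 in epithelium. The mean log2 deviation of the general leukocyte list from the 6 libraries was 0.41, -0.07 and -0.19 in KO, against 0.28, 0.05 and -0.47 in WT, and their part was not tested.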

How the results depend on the processing

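The count of 0 genes called in colon was 14 with DESeq2 (6 higher and 8 lower in KO) and stayed at 0 under every other alternative run. No member was called under any of them. Of 72 member values under alternatives that keep all libraries, 69 kept their direction. The exceptions were Inpp5d with total counts only (0.013) and with Xist status as a covariate (0.0081), against -0.01, and Pik3ca with limma-voom (-0.042), against 0.03. The cause was not tested. Leaving out 1 library at a time gave 0.59 to 1.57 for Pik3ap1, 0.29 to 0.60 for Pik3r5, -0.17 to 0.36 for Pik3cd, -0.33 to 0.18 for Inpp5d and -0.0024 to 0.098 for Pik3ca. It gave -0.22 to -0.02 for Pik3cb, -0.29 to -0.08 for Pik3r1 and 0.01 to 0.09 for Akt1 (log2). The score of leukocyte minus ubiquitous genes ranged from 0.31 to 0.65 in those runs and was 0.65 without Inpp5d and Akt1. The smallest adjusted p of Pik3cg over its alternatives was 0.131, with limma-voom.

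Deviations of same-numbered KO and WT libraries from their group means correlated at -0.04, 0.21 and -0.23 over all tested genes. With 3 libraries per group, these values cannot tell whether replicate numbers pair the libraries. With the replicate block 0 genes were called, and the log2 difference was 0.77 for Pik3cg and 1.04 for Pik3ap1. The block lowered the SE from 0.30 to 0.13 for Pik3cd and from 0.28 to 0.14 for Inpp5d. It raised the SE from 0.20 to 0.23 for Pik3cg and from 0.48 to 0.56 for Pik3ap1. The planned test of the CD8 tables was not run, because they list no member. With 78 to 373 reads per library, Pik3ap1 is the least deeply read of the 9 genes.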

Other observations

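The tables of CD8+ T cells sorted from PyMT mammary tumors, which grow from a viral oncogene in the mammary epithelium, list 357 genes, of which 2 belong to the 65 pathway genes. Pik3c2b, a class II PI3 kinase, had 49, 36 and 27 reads in the libraries labelled KO, against 98, 319 and 75 reads in those labelled WT. Per 10000 listed reads that was 18.4, 20.3 and 15.5 in KO, against 16.98, 17.4 and 16.7 in WT, so the groups overlapped. Gab1, an adaptor of PI3 kinase, had 24.3, 19.8 and 21.8 per 10000 listed reads in KO, against 17.2, 23.4 and 16.3 in WT, which also overlapped. The tables hold part of a transcriptome, so these values are relative to the other listed genes.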
